A study of Mus musculus with 20 samples.

Results

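Satellite glia and astrocytes share a set of genes, and 10 of these were followed here in trigeminal ganglia (TG) and nucleus accumbens (NAc): Fabp7, S100b, Slc1a2, Slc1a3, Glul, Kcnj10, Aqp4, Gja1, Gjb6 and Aldoc. They were picked by name out of 32941 named genes, with earlier results of these libraries known, among them the lower Fabp7 and higher Aldoc in morphine ganglia, so their TG treatment values are given as a description without a test. RNA-seq was run on 20 libraries, a TG and an NAc library from each of 10 C57BL/6J mice, all male and 9 to 12 weeks old, with tissue taken 24 hours after the last injection. The groups are TG of 5 morphine mice (labelled OIH), TG of 5 vehicle mice, NAc of the same 5 morphine mice and NAc of the same 5 vehicle mice. The mice carry no stated allele, and the labels used here give no morphine dose or schedule. Both are tissues of mixed cells, so a lower level can mean fewer cells of a type or less RNA per cell, and these cannot be told apart.

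Satellite glia wrap the cell bodies of sensory neurons in the ganglia, and astrocytes fill the space around neurons and synapses in the brain. Both take up glutamate, through the transporters encoded by Slc1a3 (GLAST) and Slc1a2 (GLT-1), and turn it into glutamine with glutamine synthetase, the product of Glul. Both also clear potassium through the inward rectifier Kir4.1 (Kcnj10) and couple through connexins. In sensory ganglia, changes in satellite glial coupling and potassium uptake are studied as part of pain states. On GRCm38.p6, Fabp7 lies at chr10:57784923-57788450, Gja1 at chr10:56377300-56390419, S100b at chr10:76253836-76261319 and Aldoc at chr11:78323073-78327781. Glul lies at chr1:153899929-153909723, Kcnj10 at chr1:172341210-172374085, Slc1a2 at chr2:102658239-102790784, Gjb6 at chr14:57123301-57133611 and Slc1a3 at chr15:8634124-8710807.

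The libraries held 61285916 to 76110288 estimated counts in TG and 52402037 to 64357778 in NAc. Levels are given as CPM, counts scaled to a common library total within a tissue, and differences as log2 fold changes with their standard error (SE). A feature, meaning a gene or an unnamed transcript, was called where edgeR's quasi-likelihood test gave it a p under 0.05 after Benjamini-Hochberg adjustment over all features. In NAc the library of vehicle mouse 2 stood apart: its median correlation with the other NAc libraries was 0.952, against 0.963 to 0.981 for the rest. That library also had the lowest summed level of 8 medium spiny neuron genes, 1347 CPM, against 2574 to 3204 CPM in the morphine libraries and 2174 to 4248 CPM in the other vehicle libraries. Vehicle mouse 5 had the next lowest correlation (0.963) and the highest sum (4248 CPM). The NAc libraries varied in other genes too: Slc17a7 ran from 38.6 to 707 CPM in morphine mice and from 3.04 to 731 CPM in vehicle mice. A share of the other tissue was taken from genes at least 200 times higher there in these same libraries. That choice holds the share low, so its size is not a finding, and the values below that use it rest on the choice. The NAc share in TG was 0.291 to 0.438% in morphine mice and 0.242 to 0.354% in vehicle mice, and the TG share in NAc was 0.160 to 0.234% in morphine mice and 0.214 to 0.460% in vehicle mice.

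All 10 genes were detected in every library, and the tissues used them in different proportion. Per kilobase of transcript, S100b had the highest level among them in TG, 445 CPM per kb in morphine mice and 458 CPM per kb in vehicle mice. Fabp7 and Glul came next and changed places. In morphine mice Glul had 221 and Fabp7 153 CPM per kb, while in vehicle mice Fabp7 had 245 and Glul 203 CPM per kb, and the ranges of the 2 genes did not overlap in either group. Aldoc followed at 57.0 CPM per kb in morphine mice and 51.6 CPM per kb in vehicle mice. The remaining TG genes were lower, and neighbours in that order mostly overlapped: Aqp4 and Kcnj10 overlapped in both groups, as did Gja1 and Slc1a2, and Slc1a2 and Slc1a3. In NAc the order was led by Slc1a2, with 1173 CPM per kb in morphine mice and 1147 CPM per kb in vehicle mice. Most Slc1a2 counts were given to a model with a length of 1957 bases here, while another of its models has 11600 bases. The Slc1a2 values per kilobase, and its first place in NAc, rest on that shorter length, and no other was tried. Glul, Aldoc and Slc1a3 followed without overlap, at 400.3, 188 and 139 CPM per kb in morphine mice and 426, 197 and 146 CPM per kb in vehicle mice. Fabp7 closed the NAc order at 14.4 CPM per kb in morphine mice and 19.6 CPM per kb in vehicle mice. Between Slc1a3 and Fabp7 lay Gja1, Aqp4, S100b and Kcnj10, each of which overlapped with the next in vehicle mice, the lowest of them with Fabp7; in morphine mice Gja1 overlapped with Aqp4 and S100b with Kcnj10. Gjb6 has no place in these orders, since a length was at hand for only 37.1% of its counts.

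**Figure D1:**
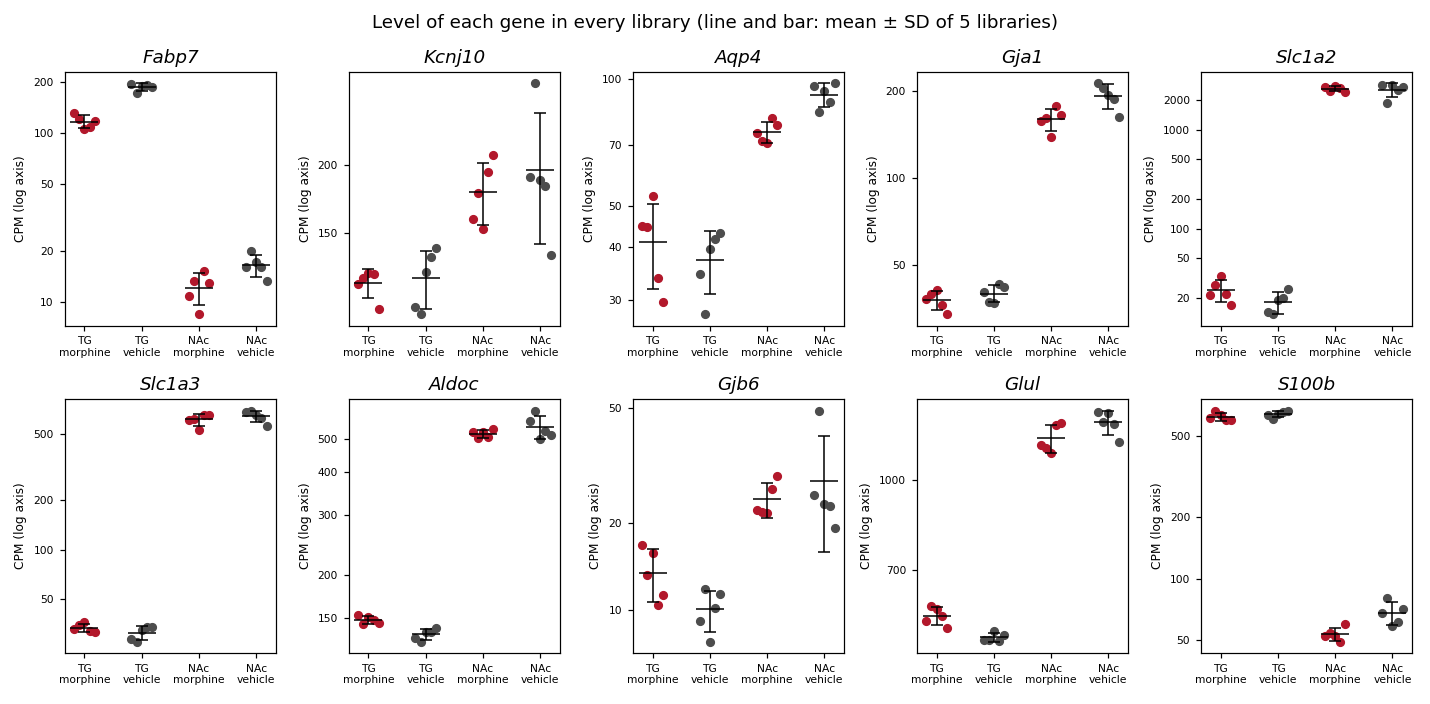
Level of each of the 10 genes in every library, as CPM scaled within a tissue on a log axis; points are libraries, the horizontal line and bar their mean and SD (n = 5). Fabp7 and S100b sit higher in TG than in NAc and the other 8 genes lower, and the Fabp7 values of morphine ganglia (105 to 131 CPM) lie wholly below those of vehicle ganglia (171 to 193 CPM).

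With all 20 libraries scaled together, the TG and NAc ranges did not overlap for 9 of the 10 genes in either set of mice. The share of all features without such overlap was not computed, so nothing is read from that count. Kcnj10 overlapped in vehicle mice, at 110.4 to 149.8 CPM in TG and 128.9 to 267.5 CPM in NAc. In morphine mice 2 genes were called higher and 8 lower in TG than in NAc; of all 32998 features tested 68.2% were called, 33.4% higher and 34.9% lower. In vehicle mice the same 2 genes, Fabp7 and S100b, were higher and the same 8 lower; of all features 67.4% were called, 32.9% higher and 34.5% lower. A count of 10 called thus stands against a background in which most features differ. Without the NAc library of vehicle mouse 2 all 10 were still called in vehicle mice. The highest adjusted p among the 10 was that of Kcnj10 in both sets (edgeR quasi-likelihood, adjusted p = 0.0197 in morphine mice and 0.00451 in vehicle mice). The Kcnj10 call in morphine mice ended when the mouse was a block (adjusted p = 0.0728), and without the NAc library of morphine mouse 5 (adjusted p = 0.0578). The median over all features was -0.06 in both sets, and scaling by library size alone moved it to -0.22 in morphine mice and -0.21 in vehicle mice, with every member's direction kept.

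**Figure D2:**
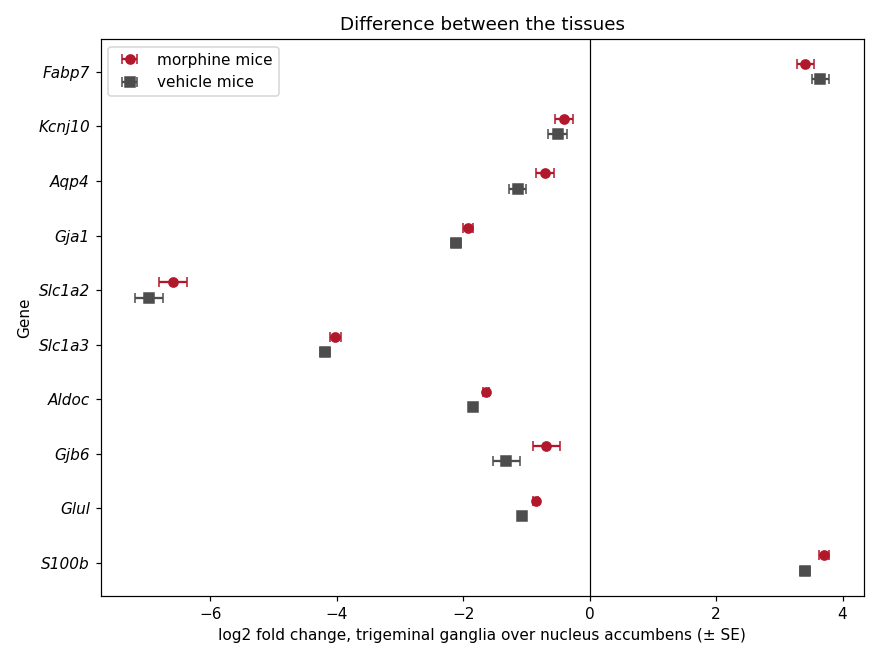
Difference between the tissues for each gene, as the log2 fold change of TG over NAc with its SE, in morphine mice (circles) and vehicle mice (squares). Slc1a2 lies farthest from 0, at -6.59 in morphine mice and -6.97 in vehicle mice; Fabp7 and S100b lie between 3.41 and 3.71.

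Fabp7 encodes the brain-type fatty acid binding protein, a carrier of long-chain fatty acids found in satellite glia, radial glia and astrocytes. In TG it had 131, 120.3, 105, 108 and 117 CPM in morphine mice, against 193, 171, 188, 192 and 187 CPM in vehicle mice. Each morphine ganglion was below each vehicle ganglion, by at least the gap between 131 and 171 CPM. The means were 116 ± 10.1 and 186 ± 9.05 CPM (SD, n = 5 each), a log2 fold change of -0.68 ± 0.06 (SE), or 37.5% less. Fabp7 was the 1 member among the 53 features called in TG, which were 0.180% of 29394, and since the choice of members used this contrast nothing is read from that count. The 53 split into 45 higher and 8 lower; with library size alone they were 38 higher and 13 lower. RNA from NAc at the measured share would account for 0.035% of the TG level in morphine mice and 0.022% in vehicle mice. That share partly followed the treatment, at 0.291 to 0.438% in morphine ganglia and 0.242 to 0.354% in vehicle ganglia. With the NAc share of each TG library as a covariate the difference was -0.60 ± 0.08 and Fabp7 was no longer called. With a score of pituitary genes as covariate it was -0.68 ± 0.07.

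The same gene was sparse in NAc. It had 10.9, 13.4, 8.52, 15.4 and 13.01 CPM in morphine mice, against 16.1, 20.2, 17.2, 16.2 and 13.4 CPM in vehicle mice. Of the morphine libraries, 4 were below every vehicle library, and that of mouse 4 was inside the vehicle range. The difference did not pass the test (-0.44 ± 0.16; edgeR quasi-likelihood, unadjusted p = 0.0208 and adjusted p = 0.781). Between the tissues Fabp7 was higher in TG, by 10.6-fold in morphine mice (3.41 ± 0.13) and 12.5-fold in vehicle mice (3.65 ± 0.13). RNA from TG at the measured share would account for 1.98% of the NAc level in morphine mice and 4.72% in vehicle mice. With that share as a covariate the NAc difference was -0.20 ± 0.30.

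The sequence before the Fabp7 start is shown because this gene had the largest treatment difference of the 10 in TG. It covers the 250 bases upstream of the RefSeq start on GRCm38.p6, chr10:57784673-57784922, plus strand. Capitals mark a match to AGGTCA, here on the reverse strand 171 bases before the start. These letters are a half-site of nuclear receptors, ROR and REV-ERB among them, and the bases beside them were not searched.
Fabp7: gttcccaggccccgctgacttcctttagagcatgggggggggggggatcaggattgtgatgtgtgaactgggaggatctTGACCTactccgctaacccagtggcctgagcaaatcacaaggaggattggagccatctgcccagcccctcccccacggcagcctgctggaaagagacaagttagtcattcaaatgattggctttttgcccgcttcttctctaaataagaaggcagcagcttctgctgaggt
Both strands of such windows were searched for AGGTCA, for CACGTG (the E-box) and for TTATGTAA (the D-box). AGGTCA was in 14.02% of 32851 windows, CACGTG in 6.02% and TTATGTAA in 0.819%. Of the 9 members with a window in the RefSeq table, Fabp7 and Glul held AGGTCA each once, and none held the others; Aqp4 had no entry. A match is a description of the letters and not a bound site.

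The genes with the most similar profile to Fabp7 were ranked by the Pearson correlation of log2 CPM among genes of at least 5 CPM. Over the 10 TG libraries, which fall into the same 2 groups for each of them, they included Disc1 (r = 0.960), Ncoa4 (0.953), Sat1 (0.945) and Frmd6 (0.943). Sat1, the enzyme that acetylates spermidine and spermine, averaged 71.6 ± 4.07 CPM in morphine ganglia and 96.2 ± 6.91 CPM in vehicle ganglia (SD, n = 5 each). Over the 10 NAc libraries the closest were Snx33 (0.965), Slc22a5 (0.932), Sdf2 (0.926), Sox2ot (0.925) and Tns3 (0.922), so no gene stood in both lists. Of the other fatty acid binding protein genes, 4 of 9 had enough counts to be tested in TG and 3 in NAc, and none was called. Fabp3 had log2 fold changes of 0.05 ± 0.03 in TG and 0.22 ± 0.14 in NAc. Pmp2, the myelin member of the family, had -0.25 ± 0.19 in TG, and Fabp4, the adipocyte member, 0.86 ± 0.37 in NAc, from a level near 0.

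S100b encodes a calcium-binding protein of satellite glia, Schwann cells, astrocytes and oligodendrocytes. TG libraries had 612, 669, 635, 605 and 600.4 CPM in morphine mice, against 640, 606, 647, 659.8 and 666 CPM in vehicle mice. The groups overlapped, and the difference of -0.04 ± 0.04 was about its own error. NAc libraries had 51.97, 54.3, 52.4, 49.1 and 59.8 CPM in morphine mice, against 67.4, 80.6, 58.6, 61.0 and 71.1 CPM in vehicle mice. Of the morphine libraries 4 were below every vehicle library, and mouse 5 was inside the vehicle range. The NAc log2 fold change was -0.34 ± 0.09 (edgeR quasi-likelihood, unadjusted p = 0.00339, adjusted p = 0.487). S100b was higher in TG than in NAc by 13.04-fold in morphine mice (3.71 ± 0.08) and 10.6-fold in vehicle mice (3.41 ± 0.08). With the TG share as a covariate the NAc difference was -0.50 ± 0.16. Markers of oligodendrocytes, which also express S100b, had a negative fold change in 7 of 7 in the same NAc libraries, with none called, and their sum was 424 to 484 CPM in morphine mice and 485 to 598 CPM in vehicle mice. Their part in the S100b value was not tested.

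Of 11 other genes around S100b, its family and the receptor gene Ager, 11 were tested in TG and 9 in NAc and none was called. S100a6 had a log2 fold change of 0.15 ± 0.04 and S100a3 of -0.59 ± 0.24 in TG. In NAc 8 of 9 were negative, with a median of -0.29 and a lowest value of -0.41; the smallest p were those of S100a16 (-0.40 ± 0.09) and S100a13 (-0.20 ± 0.06).

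Slc1a2 encodes GLT-1, the main glutamate transporter of forebrain astrocytes. TG held little of it: 21.5, 26.8, 33.2, 21.97 and 17.0 CPM in morphine mice, against 14.4, 13.6, 18.7, 19.9 and 24.4 CPM in vehicle mice. The groups overlapped, and the difference was 0.41 ± 0.21. At the measured NAc share, RNA from NAc would give 35.9% of the TG level in morphine mice and 34.1% in vehicle mice, and with that share as a covariate the difference was 0.15 ± 0.27. The NAc levels were 2696, 2444, 2764, 2664 and 2433 CPM in morphine mice, against 2802, 1866, 2826, 2521 and 2704 CPM in vehicle mice. Vehicle mouse 2 was the lowest of the 10 and the rest overlapped (0.03 ± 0.11; edgeR quasi-likelihood, adjusted p = 0.998; 95% interval -0.21 to 0.27). The level in TG was 96.5-fold lower than in NAc in morphine mice (-6.59 ± 0.22) and 125-fold lower in vehicle mice (-6.97 ± 0.22). A single transcript model of the 5 was given 93.6% of its counts in morphine ganglia and 94.6% in vehicle ganglia, and 92.0% in morphine NAc and 91.9% in vehicle NAc, as group means; single libraries ran from 84.1 to 100%.

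Slc1a3 encodes GLAST, the glutamate transporter found in satellite glia as well as in astrocytes. Its TG levels were 33.1, 35.0, 36.6, 32.0 and 31.9 CPM in morphine mice, against 28.6, 27.8, 32.9, 34.2 and 34.0 CPM in vehicle mice. The ranges overlapped, with a difference of 0.10 ± 0.07, or 0.02 ± 0.09 with the NAc share as a covariate. NAc held 608, 617, 530.5, 651 and 656 CPM in morphine mice, against 682, 689, 648, 623 and 562 CPM in vehicle mice. Morphine mouse 3 was the lowest and the groups overlapped (-0.07 ± 0.07; edgeR quasi-likelihood, adjusted p = 0.998; 95% interval -0.23 to 0.10). TG was 16.2-fold lower than NAc in morphine mice (-4.02 ± 0.08) and 18.2-fold lower in vehicle mice (-4.19 ± 0.08).

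Glul, for glutamine synthetase, separated the TG groups by a small margin. It had 572, 607, 599.9, 583 and 557 CPM in morphine mice, against 529.7, 531, 549, 529 and 542 CPM in vehicle mice. Every morphine ganglion was above every vehicle ganglion, with means of 584 ± 20.3 and 536 ± 8.98 CPM (SD, n = 5 each), a log2 fold change of 0.12 ± 0.03. Its NAc levels were 1151, 1135, 1115, 1245 and 1256 CPM in morphine mice, against 1310, 1259, 1307, 1250 and 1162 CPM in vehicle mice. Of the morphine libraries 3 were below every vehicle library (-0.09 ± 0.05; edgeR quasi-likelihood, adjusted p = 0.952). TG was 1.81-fold lower than NAc in morphine mice (-0.86 ± 0.04) and 2.10-fold lower in vehicle mice (-1.07 ± 0.04).

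The other genes of the glutamate and glutamine cycle showed no call in either tissue. Of 12, 8 were positive and 4 negative in TG, with a median log2 fold change of 0.01, and 4 were positive and 8 negative in NAc, with a median of -0.07. The vesicular glutamate transporter gene Slc17a7 had 0.06 ± 0.03 and the glutamine transporter gene Slc38a2 0.11 ± 0.06 in TG. In NAc Slc38a2 had 0.14 ± 0.10, and Slc7a11, the cystine-glutamate exchanger of astrocytes, -0.27 ± 0.10.

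Kcnj10 encodes Kir4.1, the inward rectifier through which glia take up potassium. The ganglia had 121, 124, 127, 126 and 109 CPM in morphine mice, against 109.6, 106, 127, 135 and 140.5 CPM in vehicle mice. All morphine values lay inside the vehicle range (-0.03 ± 0.08). In NAc it had 159, 178, 153, 194 and 209 CPM in morphine mice, against 191, 284, 188, 184 and 137 CPM in vehicle mice. Vehicle mice held both the highest value, in mouse 2, and the lowest, in mouse 5 (-0.14 ± 0.17; edgeR quasi-likelihood, adjusted p = 0.998; 95% interval -0.53 to 0.25). Without vehicle mouse 2 the NAc difference was 0.03 ± 0.13. Kcnj10 was the member nearest to even between tissues, 1.32-fold lower in TG than in NAc in morphine mice (-0.40 ± 0.14) and 1.42-fold lower in vehicle mice (-0.51 ± 0.14).

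Of 7 other potassium-handling genes none was called; 5 were positive in TG and 6 negative in NAc. Slc12a2, the NKCC1 cotransporter, had 0.06 ± 0.02 in TG and -0.17 ± 0.07 in NAc, where Atp1b2, a sodium pump subunit gene, had -0.34 ± 0.16.

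Aqp4 encodes the water channel of astrocyte endfeet. In TG it had 44.8, 44.5, 53.0, 33.8 and 29.6 CPM in morphine mice, against 34.5, 27.7, 39.5, 41.9 and 43.2 CPM in vehicle mice. The spread within each group was wide and the groups overlapped (0.14 ± 0.17). Its level in NAc was 74.6, 71.4, 70.5, 81.0 and 77.8 CPM in morphine mice, against 96.3, 83.7, 93.8, 88.2 and 97.8 CPM in vehicle mice. Each morphine library was below each vehicle library, with means of 75.0 ± 4.38 and 92.0 ± 5.88 CPM (SD, n = 5 each). By CPM, Aqp4 was the 1 member of 10 whose NAc groups did not overlap. Over all features 1.72% did not, 1.07% with morphine lower. Per kilobase of transcript the Aqp4 groups in NAc did overlap. They had 40.3 to 48.7 CPM per kb in morphine mice and 40.6 to 54.7 CPM per kb in vehicle mice. The separation thus depends on how counts of its short and long transcript models are weighed. The log2 fold change of -0.29 ± 0.06 did not pass the test over all features (edgeR quasi-likelihood, unadjusted p = 4.23e-04, adjusted p = 0.324), while DESeq2 called it (adjusted p = 7.55e-04). It was -0.32 ± 0.05 without vehicle mouse 2 and -0.39 ± 0.10 with the TG share as a covariate. Between tissues Aqp4 was 1.63-fold lower in TG than in NAc in morphine mice (-0.71 ± 0.14) and 2.20-fold lower in vehicle mice (-1.14 ± 0.14).

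Aqp4 counts were spread over 9 transcript models, of which 2 of 5054 bases had identical values in every library and cannot be separated. These long models together took 36.7 ± 6.99% of the gene in morphine ganglia and 46.7 ± 26.2% in vehicle ganglia, and 36.0 ± 9.15% in morphine NAc and 45.0 ± 11.4% in vehicle NAc (SD, n = 5 each). Of 11 genes that anchor Aqp4 or belong with it none was called. In TG the other water channel gene, Aqp1, had -0.13 ± 0.04. In NAc 10 of 11 were negative, with a median of -0.11, and Dag1, for dystroglycan, had -0.07 ± 0.04.

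Gja1 encodes connexin 43, a gap junction protein of satellite glia, astrocytes and fibroblasts. Ganglia held 38.3, 39.8, 40.9, 36.4 and 33.8 CPM in morphine mice, against 40.4, 37.2, 36.9, 42.8 and 41.9 CPM in vehicle mice. The groups overlapped (-0.08 ± 0.06). Fibroblast markers had a negative fold change in 5 of 5 in the same ganglia, with none called, and their sum was 584 to 729 CPM in morphine mice and 741 to 820.1 CPM in vehicle mice. Their part in the Gja1 value was not tested. In NAc it had 158, 161, 138, 178 and 165 CPM in morphine mice, against 213, 206, 195, 189 and 164 CPM in vehicle mice. Of the morphine libraries 3 were below every vehicle library (-0.27 ± 0.08; edgeR quasi-likelihood, unadjusted p = 0.00855, adjusted p = 0.642). With the TG share as a covariate the NAc difference was -0.07 ± 0.14. TG was 3.79-fold lower than NAc in morphine mice (-1.92 ± 0.08) and 4.34-fold lower in vehicle mice (-2.12 ± 0.08).

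Gjb6 encodes connexin 30, a gap junction protein of astrocytes. In TG it had 16.8, 13.2, 15.7, 10.3 and 11.2 CPM in morphine mice, against 9.10, 11.8, 7.75, 10.1 and 11.3 CPM in vehicle mice. Of the morphine ganglia 3 were above every vehicle ganglion (0.43 ± 0.16). In NAc it had 22.1, 21.9, 21.7, 26.2 and 29.1 CPM in morphine mice, against 25.0, 49.1, 23.3, 23.0 and 19.2 CPM in vehicle mice. Vehicle mouse 2 stood far above the other 9, and it decided the sign: the difference was -0.21 ± 0.24 with it (edgeR quasi-likelihood, adjusted p = 0.998) and 0.10 ± 0.11 without it. TG was 1.61-fold lower than NAc in morphine mice (-0.69 ± 0.21) and 2.50-fold lower in vehicle mice (-1.32 ± 0.22), or -1.02 ± 0.15 without that library.

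**Figure D3:**
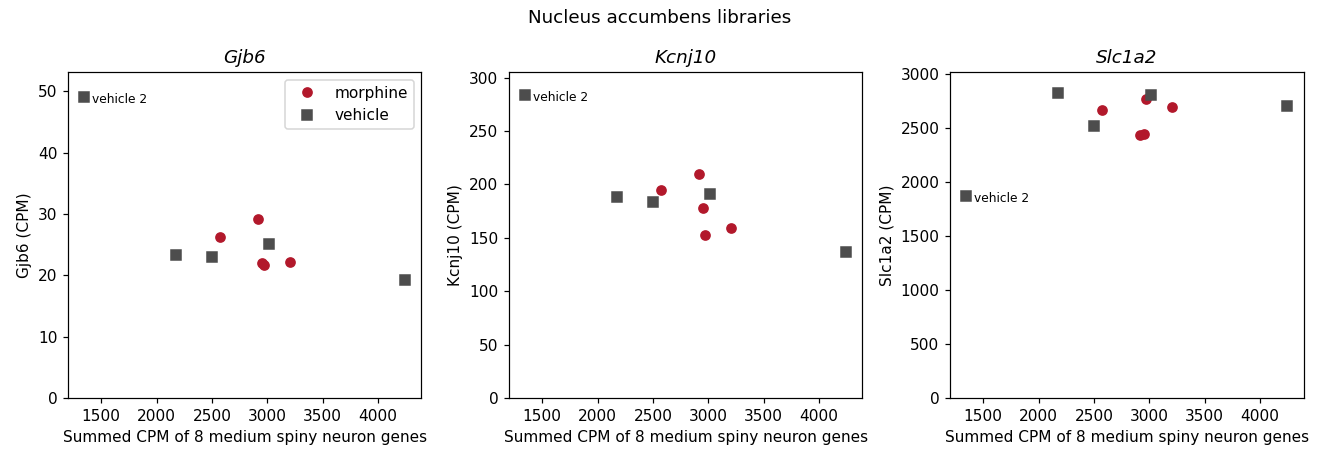
Gjb6, Kcnj10 and Slc1a2 (CPM, axes from 0) in the 10 NAc libraries against the summed CPM of 8 medium spiny neuron genes; circles are morphine and squares vehicle libraries. Vehicle mouse 2, at 1347 CPM on the horizontal axis, has the highest Gjb6 (49.1 CPM) and Kcnj10 (284 CPM) and the lowest Slc1a2 (1866 CPM).

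Among 11 other gap junction genes none was called. In TG 7 were positive and 4 negative; Panx1, a pannexin, had 0.15 ± 0.04, and Gjc3, for connexin 29 of myelinating glia, -0.15 ± 0.07. In NAc 9 of 11 were negative, with the smallest p for the oligodendrocyte connexin gene Gjb1 (-0.51 ± 0.08; edgeR quasi-likelihood, adjusted p = 0.176).

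Aldoc encodes aldolase C, the brain form of a glycolytic enzyme. In TG it had 153, 144, 151, 148 and 145 CPM in morphine mice, against 131, 128, 137, 137 and 140.5 CPM in vehicle mice. Every morphine ganglion was above every vehicle ganglion, with means of 148 ± 4.13 and 135 ± 4.96 CPM (SD, n = 5 each), a log2 fold change of 0.14 ± 0.03. Fabp7, Glul and Aldoc were the 3 members whose TG groups did not overlap; over all features 2.54% did not, 1.11% with morphine lower and 1.44% higher, and nothing is read from the members' count. In NAc Aldoc had 522, 501, 522, 506 and 535 CPM in morphine mice, against 563, 603, 498, 525 and 513 CPM in vehicle mice. All morphine values lay inside the vehicle range (-0.06 ± 0.06; edgeR quasi-likelihood, adjusted p = 0.998; 95% interval -0.19 to 0.06). TG was 3.12-fold lower than NAc in morphine mice (-1.64 ± 0.05) and 3.59-fold lower in vehicle mice (-1.84 ± 0.05). The other 16 glycolytic genes showed no call, with medians of 0.00 in TG and 0.02 in NAc. Ldha had -0.07 ± 0.03 and Pgam1 0.05 ± 0.03 in TG, and Pfkm had 0.08 ± 0.05 and Eno2 0.05 ± 0.05 in NAc.

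Aldoc has 2 transcript models that begin at different starts, and the tissues used them in different proportion. The shorter model, of 1700 bases, was given 1.84 ± 0.844% of the gene's counts in TG and 11.2 ± 0.756% in NAc (SD, n = 10 each). The highest TG library had 3.50% and the lowest NAc library 10.6%, so the tissues did not overlap. Between treatments the share overlapped in both tissues, at 2.04 ± 1.04% in morphine ganglia and 1.65 ± 0.651% in vehicle ganglia, and at 11.2 ± 0.523% in morphine NAc and 11.3 ± 0.998% in vehicle NAc. The longer model, of 2786 bases, took the rest. The models also differ at the 3′ end, so the share is not a measure of the start alone.

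**Figure D4:**
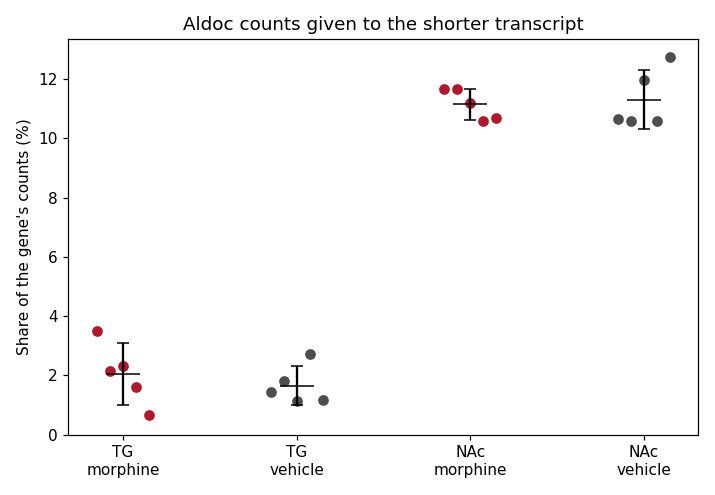
Share of Aldoc counts given to the shorter of its 2 transcript models (percent, axis from 0) in each library; the line and bar are the mean and SD of 5 libraries. All TG libraries lie between 0.646 and 3.50% and all NAc libraries between 10.6 and 12.8%.

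The windows before both Aldoc starts are shown because the share differed between the tissues. Each holds the 250 bases upstream on GRCm38.p6 from RefSeq, plus strand: the upstream start has chr11:78322823-78323072 and the downstream start chr11:78323948-78324197. Neither held a match to the 3 motifs, so no base is in capitals.
Aldoc upstream start: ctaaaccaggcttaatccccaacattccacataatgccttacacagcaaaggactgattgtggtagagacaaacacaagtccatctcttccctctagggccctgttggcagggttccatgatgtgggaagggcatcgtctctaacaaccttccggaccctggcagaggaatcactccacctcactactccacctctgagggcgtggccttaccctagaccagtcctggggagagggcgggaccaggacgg
Aldoc downstream start: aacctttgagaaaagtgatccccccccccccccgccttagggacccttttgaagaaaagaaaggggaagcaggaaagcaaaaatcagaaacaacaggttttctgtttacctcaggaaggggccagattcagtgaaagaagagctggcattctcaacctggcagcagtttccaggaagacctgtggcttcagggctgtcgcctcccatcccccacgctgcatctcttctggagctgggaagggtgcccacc
Their GC content was 55.2% before the upstream start and 54.0% before the downstream start.

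Set side by side, the treatment differences of the 10 genes were mixed in TG and mostly below 0 in NAc. In TG 6 were positive and 4 negative, with a median log2 fold change of 0.11, against a median of 0.00 over all features. In NAc 9 were negative, the exception being Slc1a2, with a median of -0.17, against -0.01 over all 29910 features, of which 51.9% were negative. None of the 10 was called in NAc, where the edgeR test called 0 of 29910 features (0%), 1709 had an unadjusted p under 0.05, DESeq2 called 245 and limma voom 4. At an unadjusted p under 0.05, 4 of the 10 were lower in NAc (Aqp4, S100b, Gja1 and Fabp7), and 3.32% of all features were. Without vehicle mouse 2 the NAc values were -0.36 for Fabp7, -0.27 for S100b, -0.25 for Gja1, -0.09 for Glul, -0.04 for Slc1a3 and -0.02 for Aldoc, and Slc1a2 turned to -0.06. With the TG share as a covariate 4 of the 9 negative values became positive, each smaller than its SE. They were Kcnj10 (0.26 ± 0.33), Gjb6 (0.16 ± 0.48), Slc1a3 (0.087 ± 0.13) and Glul (0.0037 ± 0.096). That share was 0.160 to 0.234% in morphine NAc and 0.214 to 0.460% in vehicle NAc. It largely follows the treatment, so this fit can hardly separate them and the signs are not settled.

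**Figure D5:**
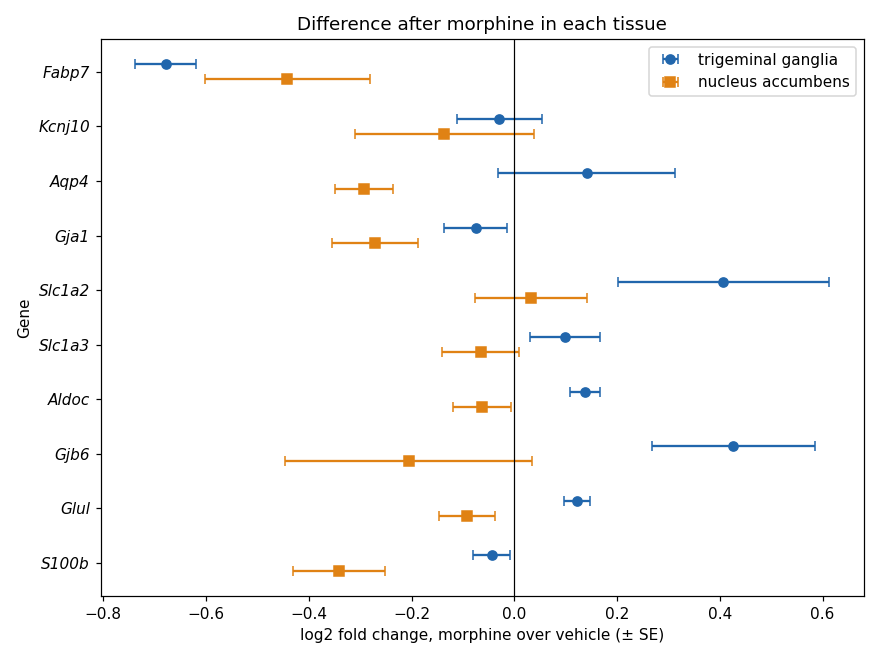
Treatment difference of each gene, as the log2 fold change of morphine over vehicle with its SE, in TG (circles) and NAc (squares). Fabp7 is lowest in both tissues, at -0.68 in TG and -0.44 in NAc, and in NAc 9 of the 10 points lie below 0.

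The difference between the treatment effects of the tissues, TG minus NAc, was positive for 9 genes and negative for Fabp7 (-0.24 ± 0.17). It was 0.22 ± 0.06 for Glul, 0.20 ± 0.06 for Aldoc, 0.30 ± 0.10 for S100b, 0.43 ± 0.19 for Aqp4 and 0.63 ± 0.30 for Gjb6. None of the 10 was called in edgeR's test, in which 13 of 32998 features were (0.0394%). DESeq2, which called 228 features, called Glul among the 10 (adjusted p = 0.0076). The TG effect is part of this difference and was known when the genes were chosen.

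Wider lists of the same cell types showed no call in either tissue. Of 14 other satellite glial genes 10 were negative in TG, with a median log2 fold change of -0.06; Dbi, another lipid carrier gene, had -0.22 ± 0.07 and Ptprz1 -0.09 ± 0.03. Their summed level was 5152 to 5702 CPM in morphine ganglia and 5091 to 6180 CPM in vehicle ganglia, so the groups overlapped. In NAc, where these genes are shared with oligodendrocytes and astrocytes, 14 of 14 were negative, with a median of -0.13 and a lowest value of -0.67. Sox10 (-0.31 ± 0.07) had the smallest p. Their NAc sum was 3723 CPM in vehicle mouse 2, against 2933 to 3056 CPM in the other vehicle mice and 2614 to 3063 CPM in morphine mice. How many stay negative without that library is not reported here. Of 19 other astrocyte genes 13 were positive in TG, with a median of 0.04. Atp1b2 had 0.28 ± 0.10 there. In NAc 18 of 19 were negative, with a median of -0.13. Cst3, for cystatin C, had -0.25 ± 0.05 (edgeR quasi-likelihood, adjusted p = 0.340) and Mt3, a metallothionein, -0.17 ± 0.05. The NAc sum of the astrocyte list was 4713 CPM in vehicle mouse 2, against 3632 to 4034 CPM in the other vehicle mice and 3367 to 3837 CPM in morphine mice. The same limit holds for this count. The defining astrocyte gene Aldh1l1 was at 0.599 to 5.82 CPM in morphine ganglia and 0.813 to 3.26 CPM in vehicle ganglia, against 11.9 to 17.5 CPM in morphine NAc and 12.7 to 18.6 CPM in vehicle NAc. Sox10, which marks satellite glia and Schwann cells, was at 138 to 172 CPM in morphine ganglia and 131 to 172 CPM in vehicle ganglia.

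Markers of other cells also leaned one way with the treatment, with none called, and their part in the members' values was not tested unless a covariate fit is given above. In TG 8 of 8 pituitary genes and 4 of 4 red blood cell genes were positive. Their sums were 47.1 to 1440 and 381 to 1184 CPM in morphine ganglia, against 19.7 to 1048 and 294 to 537 CPM in vehicle ganglia. Oligodendrocyte genes were positive in 6 of 7 in TG, with a median log2 fold change of 0.43 and sums of 218 to 373 CPM in morphine ganglia and 240.1 to 332 CPM in vehicle ganglia. Microglia and macrophage genes were negative in 6 of 7 in both tissues, with medians of -0.48 in TG and -0.08 in NAc. Their sums were 32.3 to 41.7 CPM in morphine ganglia and 40.1 to 101.4 CPM in vehicle ganglia, and 132 to 149 CPM in morphine NAc and 126 to 181 CPM in vehicle NAc. The ganglia of vehicle mouse 2 alone gave the 101.4 CPM, and the other vehicle ganglia had 40.1 to 43.4 CPM. Endothelial genes were negative in 6 of 6 in both tissues, with sums of 110.4 to 125 CPM in morphine ganglia and 122 to 135 CPM in vehicle ganglia, and of 121 to 132 CPM in morphine NAc and 135 to 159.8 CPM in vehicle NAc. In NAc 7 of 8 sensory neuron genes and 5 of 7 Schwann cell genes were negative and 8 of 8 medium spiny neuron genes positive. No defining marker of sensory neurons, Schwann cells or oligodendrocytes was at 0 throughout in either tissue; among the medium spiny neuron genes Penk was near 0 in TG, with medians of 0.131 CPM in morphine mice and 0.122 CPM in vehicle mice.

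Among the 10 genes, levels mostly varied together from library to library. After each group's mean was removed, 43 of the 45 pairs had a positive Pearson correlation over the 10 TG libraries, with a median of 0.55, and 32 of 45 over the 10 NAc libraries, with a median of 0.38; libraries share their scaling and tissue makeup, so these are descriptions. In TG the closest pair was Slc1a2 and Slc1a3 (0.903), both of which are higher in NAc. In NAc the closest were Gja1 and Slc1a3 (0.964) and Kcnj10 and Gjb6 (0.941), and Slc1a2 ran opposite to Gjb6 (-0.864). The values of vehicle mouse 2 are part of these NAc correlations.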

How the data were processed

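RNA of TG and NAc was sequenced on 101-cycle reads; the labels' protocols describe single-end and the series design paired-end reads. The authors deposited estimated counts per transcript, made with kallisto 0.43 against GRCm38 per the submitters' processing notes; no source used here gives its settings. In all, 107185 transcripts were in the table and 56.7% of values were not whole. Transcripts were summed per gene by RefSeq ID (80.8% of transcripts and 90.0% of counts matched a name, which gave 32941 named genes and, with unmatched transcripts, 53518 features), rounded, filtered with edgeR's filterByExpr and scaled by TMM. No value column was left out (0 unused). Tests were edgeR 4.0.16 quasi-likelihood in R 4.3.3: within a tissue for treatment, and on all 20 libraries for tissues and the interaction, without a block. Both were tested on simulated data first. DESeq2 1.42.0, limma 3.58.1 voom, other scalings and filters, covariates, and each library left out were alternatives.

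The members and gene lists were chosen with earlier results of these data known. Named from each list were called genes, up to 4, or else the 2 with the smallest p, beside genes that mark a cell type; some genes that this rule names are not reported here. TG and NAc libraries with the same number come from the same mouse, per the labels; deviations of the same mouse correlated at -0.054 to 0.029. The labels do not say whether mice were litter mates, or which of the sequencing lanes held which library. The share of the other tissue came from genes at least 200 times higher there (24 for NAc and 46 for TG), and no other ratio was tried. Levels per kilobase use the lengths of GENCODE transcripts linked to each RefSeq ID, the longest where several were linked.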

Additional observations from a re-analysis of the deposited data

Results flagged for a closer look

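Of 40 sets of 5 libraries (10 genes in 4 groups), 2 held a library far from the other 4, and chance alone flags about 1 in 20. Fabp7 in the vehicle ganglia of mouse 2 was 170.7 CPM, below the other 4 vehicle ganglia at 187 to 193 CPM and still above every morphine ganglion; without it the TG log2 fold change was -0.71. Gjb6 in the NAc of vehicle mouse 2 was 49.1 CPM, above the other vehicle libraries at 19.2 to 25.0 CPM. This is the NAc library that stood apart in its correlations and in its medium spiny neuron genes; what sets it apart was not tested.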

How the results depend on the processing

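The TG count of 53 called features was 709 with DESeq2, 82 with limma voom, 85 with a mean of at least 1 CPM, 123 with named genes only, 2 with the NAc share and 12 with the pituitary score as a covariate. With a library left out it ran from 19 to 77, under 36 without any of 8 of the 10 (not vehicle 2 or morphine 4). The NAc count of 0 was 245 with DESeq2, 4 with voom, 1 at a mean of at least 1 CPM, 3 with named genes only, and 0 to 0 with a library left out. The interaction count of 13 was 228 with DESeq2, 0 with voom, 8 with library size alone, 8 with no filter, and 6 to 33 with a library left out (33 without the NAc of vehicle mouse 5). Tissue counts moved by less than 1.5 times.

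The replicate number as a block left 2 calls in TG and 0 in NAc, and with it Fabp7 in TG kept -0.68 and was not called. Same-numbered mice of the 2 treatments correlated at -0.009 to 0.031 in TG. In NAc every number gave a positive correlation, from 0.034 to 0.259. Whether same-numbered NAc libraries share a step of handling was not tested. The mouse as a block left 1 interaction call, and of the members' tissue calls it ended that of Kcnj10 in morphine mice. Fabp7 in TG ran from -0.72 to -0.64 with a library left out. DESeq2 also called Aqp4 in NAc, Glul in the interaction, and Aldoc and Glul in TG, where nothing is read from a call. The causes of these changes were not tested.

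Of the members' values under alternatives other than a left-out library, 418 kept direction and side of the threshold, 5 reversed, 4 passed it and 3 no longer did. Reversed in NAc were Slc1a2 with voom (-0.018 ± 0.074) and, with the TG share, 4 others. These were Kcnj10 (0.26 ± 0.33), Slc1a3 (0.087 ± 0.13), Gjb6 (0.16 ± 0.48) and Glul (0.0037 ± 0.096). Each reversed value was smaller than its SE. With a library left out Kcnj10 ran from -0.081 to 0.021 in TG, -0.24 to 0.033 in NAc and -0.061 to 0.21 in the interaction, Slc1a2 in NAc from -0.061 to 0.073 and Gjb6 in NAc from -0.31 to 0.10.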

Other observations

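A list of 9 clock genes was set beside the upstream windows. In TG 5 were called higher in morphine mice and none lower, where 0.180% of all features were called. The list was chosen with earlier results of these libraries known, so nothing is read from that count. The smallest p were those of Dbp (1.16 ± 0.09), Per3 (0.64 ± 0.06), Ciart (1.23 ± 0.11) and Per2 (0.74 ± 0.08). Of the other 4, Nr1d2 and Rora were positive and Arntl and Rorb negative. Arntl, the gene of the clock activator BMAL1, had 3.89 ± 0.589 CPM in morphine ganglia and 6.91 ± 1.30 CPM in vehicle ganglia (SD, n = 5 each), without overlap, and was not called (-0.83 ± 0.15; edgeR quasi-likelihood, adjusted p = 0.0819); it was named after its values were seen. In NAc none was called, with the smallest p for Ciart (0.83 ± 0.11) and Nr1d2 (0.28 ± 0.04).

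Gjb6 counts lay mostly on a predicted transcript model, with 67.3 ± 9.57% of the gene in morphine ganglia and 61.9 ± 8.90% in vehicle ganglia, and 58.7 ± 3.39% in morphine NAc and 58.6 ± 3.94% in vehicle NAc (SD, n = 5 each). A predicted Kcnj10 model took 8.44 ± 3.85% in morphine ganglia and 7.06 ± 1.503% in vehicle ganglia, and 3.88 ± 0.441% in morphine NAc and 8.01 ± 3.05% in vehicle NAc. The NAc shares of Kcnj10 were 3.15 to 4.25% in morphine mice and 3.89 to 11.6% in vehicle mice.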
